A study of Mus musculus with 12 samples.

Results

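N6-methyladenosine (m6A) is a methyl mark on adenosines of RNA. A methyltransferase complex of writers places it, the 2 demethylases FTO and ALKBH5 (erasers) can remove it, and reader proteins bind it or the RNA around it. Among the readers, the cytoplasmic YTHDF proteins are known for the decay and translation of methylated mRNA, the nuclear YTHDC1 for splicing and export, and the nuclear RNA-binding proteins HNRNPA2B1 and HNRNPC for processing of RNA whose folding or packaging the mark can alter. The RNAs of these proteins carry m6A themselves, and the peaks described here are those on the RNAs of 8 such genes: the erasers Fto and Alkbh5, and the readers Ythdf1, Ythdf2, Ythdf3, Ythdc1, Hnrnpa2b1 and Hnrnpc. Every peak whose gene annotation held one of these symbols was taken, which gave 42 of 37118 peaks: 12 on the erasers and 30 on the readers.

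The peaks come from MeRIP-seq, in which fragmented RNA is pulled down with an antibody against m6A and sequenced. Livers came from wild-type male C57BL/6 mice, aged 6 to 8 weeks when housing is described, that received CdCl2 at 20 mg/kg/day (3 cadmium samples) or 0 mg/kg/day (3 control samples) by gavage until day 90. The protocol gives 6 animals per group, and how 3 samples per group relate to them is not stated, so the p-values measure the spread between these samples. Only counts per peak were used, read as those of the immunoprecipitated RNA because the rows are m6A peaks, without input RNA, so a lower count can stand for less RNA of the gene, for a smaller methylated share, or for both.

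Counts in peaks totalled 40174736 to 51205200 in cadmium samples and 46474259 to 52338612 in control samples. The 2 most abundant peaks, on Gm12895 and Gm12896, took 4.95% to 19.7% of a sample's counts. The 7 hepatocyte markers looked for (Alb, Apoa1, Ttr, Cps1, Apob, Hnf4a and Serpina1a) all had peaks, with a summed level of 24091 to 28992 CPM (counts scaled to a common library size) in cadmium samples and 28509 to 29292 CPM in control samples, and 0 were called by edgeR (1 at an unadjusted p below 0.05, and 1 by DESeq2, Hnf4a). Some markers of other liver cells differed between the groups. Over all genes, 5.98% were called higher and 4.18% lower in cadmium samples by edgeR. Of the stellate cell markers, 3 of 5 tested (Lrat, Rgs5 and Colec11) were called higher in cadmium samples, with sums of 274 to 309 CPM in cadmium samples and 178 to 231 CPM in control samples. Dcn and Reln were not called, with log2 changes of 0.38 and 0.13. Of the Kupffer cell markers, 1 of 3 tested, Cd5l, was called higher (sums of 163 to 208 CPM in cadmium samples and 95.7 to 147 CPM in control samples). The other Kupffer markers were not called, with log2 changes of 0.21 for Clec4f and -0.82 for Vsig4 (unadjusted p = 0.0306, adjusted p = 0.142 by edgeR). Of the endothelial markers 1 of 4, Lyve1, was called higher (sums of 92.6 to 141 CPM in cadmium samples and 95.4 to 135 CPM in control samples). Stab2, Kdr and Pecam1 were not called, with log2 changes of 0.29, -0.06 and 0.36. Of the cholangiocyte (3 tested), lymphocyte (2 tested) and erythroid (2 tested) markers, 0 were called by edgeR or DESeq2, with 3, 1 and 0 at an unadjusted p below 0.05. Their sums were 73.6 to 263, 2.90 to 4.13 and 34.7 to 119 CPM in cadmium samples and 78.4 to 100, 1.99 to 2.58 and 41.7 to 69.0 CPM in control samples. The macrophage markers Adgre1 and Timd4, the endothelial marker Clec4g and the biliary keratins Krt19 and Krt7 had no peak in the table used here. Nor did the B and NK cell markers Cd79a, Ms4a1 and Nkg7 or the erythroid marker Hbb-bt. The part of these cells in the values below was not tested. In bulk tissue these counts cannot tell apart the number of cells of a type, the RNA per cell and its methylated share.

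All 42 peaks lay inside the RefSeq span of their gene (GRCm38.p6, the assembly behind the deposited mm10 coordinates), and all passed the filter on low counts. They were 105 to 1613 bp wide. The sequence under them could be read only where a peak reached the window around an annotated transcription start, which runs from 250 bases before it to 50 after. This held for 2 genes, and the first bases of the peak inside the window are shown because they are the only peak sequence at hand. The stretches are from RefSeq (GRCm38.p6), at chr5:86804237-86804266 on the plus strand and chr6:51469796-51469819 on the minus strand. The Ythdc1 peak began 29 bases before the annotated start of its window, at 86804266. That start is an internal one: the RefSeq span of Ythdc1 begins at 86803980, so the peak began inside the gene. The Hnrnpa2b1 peak began 26 bases after the annotated start of the window it reached, at 51469845. That start is internal as well, since the RefSeq span of Hnrnpa2b1 begins at 51470048 on the minus strand.
Ythdc1 first peak: gtttcgcgcaggaagcaggctccattttag
Hnrnpa2b1 first peak: caggagctcctttgcggcccagtt
Neither the 79 bases of the Ythdc1 overlap nor the 24 bases of the Hnrnpa2b1 overlap held GGAC on the gene's strand, the letters most often methylated in mammalian mRNA. That says only that these letters are not in these bases.

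The start windows were also searched for the core of the metal response element, the site of the zinc-sensing and cadmium-responsive factor MTF1, spelled TGCACNC or TGCGCNC on either strand in the 250 bases before the start. Windows were at hand for 7 of the 8 genes, Ythdf3 being the one without. The letters stood in 3 of these 7 genes, Ythdf1, Ythdf2 and Ythdc1, beside 23.8% of 27025 genes with a window in the table. The matches are given with the core in capitals, on the gene's strand, at chr2:180920991-180921017 (minus), chr4:132212331-132212357 (minus) and chr5:86804065-86804091 (plus).
Ythdf1: aggagcgacgGTGCGCAggcgcaatgg
Ythdf2: gggagaccgcGCGCGCAccgcttccgc
Ythdc1: acgtcaagttTGCGCGCggggcgggac
In Ythdf1 and Ythdf2 the core is read on the opposite strand. For these genes the start of the window is also where the RefSeq span begins on the gene's strand. The Ythdc1 match lies before the start of its window (86804266) but inside the RefSeq span of the gene, which begins at 86803980. A match of letters is a description and not a binding site.

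None of the 8 genes was called changed by cadmium. When the counts of all peaks of a gene were summed and tested over 13050 genes (edgeR's quasi-likelihood test with Benjamini-Hochberg adjusted p below 0.05), 0 of the 8 members were called, beside 10.2% of all genes (5.98% higher and 4.18% lower in cadmium samples). At an unadjusted p below 0.05 there were 2 members, Ythdf1 and Ythdf3, both lower in cadmium samples, beside 26.7% of all genes in either direction and 12.0% lower. DESeq2 called 1 of them, Ythdf3. These 2 were also the genes whose groups did not overlap, beside 31.4% of all genes (14.5% lower and 16.9% higher in cadmium samples). The log2 change was below 0 for 5 of the 8, beside 50.4% of all genes. Peak by peak, 0 of 42 peaks were called, beside 6.27% of 37088 peaks tested (3.55% higher and 2.72% lower in cadmium samples). At an unadjusted p below 0.05 there were 5 of 42 peaks (11.9%), all lower in cadmium samples, beside 21.8% of all peaks in either direction and 9.95% lower. DESeq2 called 1 of the 5. The 2 groups did not overlap at 12 of the 42 peaks (28.6%), 8 of them lower and 4 higher in cadmium samples, beside 26.8% of all peaks (12.5% lower and 14.4% higher). The log2 change (cadmium over control) was below 0 at 26 of 42 peaks, or 61.9%, beside 50.5% of all peaks, with a median of -0.06.

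**Figure D1:**
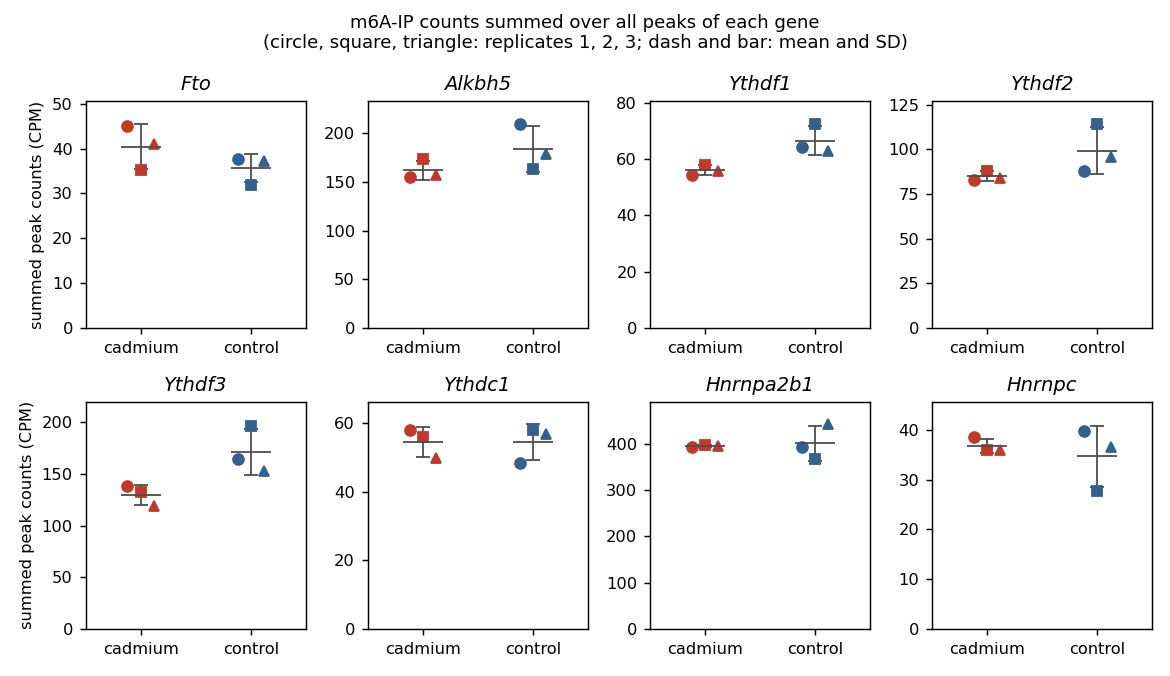
CPM summed over all peaks of each gene, by group, with 1 symbol per replicate and the mean and SD of 3 samples. Ythdf1 and Ythdf3 are the genes whose cadmium samples all lie below all control samples; the groups overlap in the other 6.

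The intervals bound how large a change could have been missed. For 7 of the 8 genes the 95% interval of the fold change in summed counts lay within 1.5-fold in both directions, and for all 8 within 2-fold. Of the single peaks, 39 of 42 had intervals within 2-fold. The gene with an interval beyond 1.5-fold was Ythdf3. Among the 13050 genes the summed levels of the 8 ranked from the 66.1 percentile (Hnrnpc) to the 97.4 percentile (Hnrnpa2b1), with 1591 to 25265 counts in a sample.

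The erasers differed in sign. Fto, the 2-oxoglutarate-dependent demethylase first known for its association with body mass, had 45.1, 35.3 and 41.0 CPM in cadmium replicates 1, 2 and 3 and 37.8, 32.0 and 37.3 CPM in control replicates 1, 2 and 3. The groups overlapped, since cadmium replicate 2 lay below control replicates 1 and 3. Its log2 change was 0.18 (SE 0.13, 95% interval 0.924-fold to 1.39-fold, adjusted p = 0.419). Alkbh5, the nuclear demethylase of the same enzyme family, had 155, 173 and 157 CPM in cadmium replicates and 209, 163 and 178 CPM in control replicates. Here cadmium replicate 2 lay above control replicate 2, so the groups overlapped as well. Its log2 change was -0.18 (SE 0.13, interval 0.724-fold to 1.08-fold, adjusted p = 0.404). The difference between the changes of Fto and Alkbh5 was not tested.

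Fto carried 6 peaks spread over its long gene (chromosome 8, 91313367 to 91668433), from 0.0815% to 86.6% of the way along it. Its leading peak (91409281 to 91409724, 27.1% along the gene) held 57% ± 2.24 of the gene's peak counts in cadmium samples and 58.6% ± 1.55 in control samples (SD, n = 3 each). That peak had 29.9, 22.3 and 26.6 CPM in cadmium replicates and 23.5, 21.6 and 25.2 CPM in control replicates, with overlapping groups (log2 change 0.16, SE 0.16, adjusted p = 0.598). The other 5 Fto peaks were 105 to 124 bp wide at 3.59 to 4.70 CPM in cadmium samples and 2.94 to 4.06 CPM in control samples. At 2 of these, 91313600 to 91313713 and 91414668 to 91414782, every cadmium sample lay above every control sample, beside 14.4% of all peaks. All 6 log2 changes were above 0, between 0.16 and 0.36, with adjusted p of 0.259 to 0.647. The 6 peaks share one RNA and are not 6 independent signs.

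Alkbh5 (chromosome 11, 60537683 to 60558512) also carried 6 peaks, from 4.25% to 99.2% along the gene, and all 6 log2 changes were below 0, between -0.56 and -0.08. Without control replicate 1, 4 of the 6 were below 0, and without cadmium replicate 1, 5 of the 6. Its leading peak, 949 bp wide and 411 bases past the annotated start (60538094 to 60539043), held 50.9% ± 2.22 of the gene's peak counts in cadmium samples and 48.2% ± 2.61 in control samples (SD, n = 3 each). It had 84.2, 102 and 95.6 CPM in cadmium replicates and 110, 85.1 and 103 CPM in control replicates. Those groups overlapped widely (log2 change -0.08, SE 0.15, adjusted p = 0.812).

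The last Alkbh5 peak, next to the end of the gene (60558240 to 60558445), had 5.77, 4.99 and 4.24 CPM in cadmium replicates and 8.47, 7.67 and 5.96 CPM in control replicates. Every cadmium sample lay below every control sample there. The log2 change was -0.56 (SE 0.19), with an unadjusted p of 0.0144 and an adjusted p of 0.116 by edgeR's quasi-likelihood test. This peak held 2.73% ± 0.526 of the gene's peak counts in cadmium samples and 3.59% ± 0.588 in control samples (SD, n = 3 each). Set against the other Alkbh5 peaks it was lower by a log2 change of -0.28, with an unadjusted p of 0.0799 (edgeR's diffSpliceDGE), the smallest such p among the 42 peaks.

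**Figure D2:**
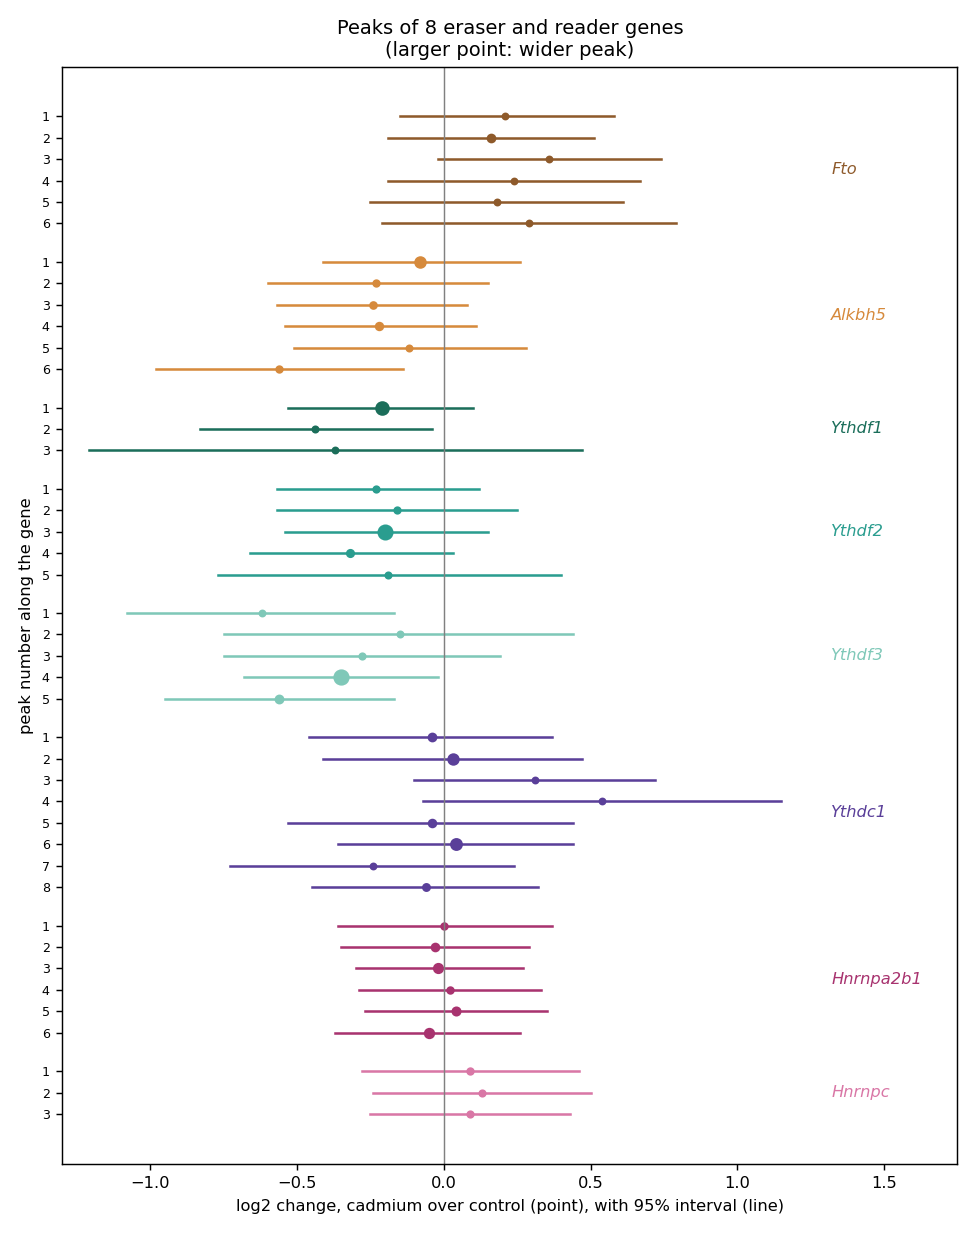
Log2 change of each of the 42 peaks (cadmium over control) with its 95% interval, ordered within each gene from the start side (Ythdf3 from the low-coordinate end); larger points are wider peaks. All 6 Fto peaks lie above 0, all 6 Alkbh5 peaks and all 13 Ythdf1, Ythdf2 and Ythdf3 peaks lie below 0, and the Hnrnpa2b1 peaks cluster at 0.

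The YTHDF readers all had lower mean levels in cadmium samples, with the largest of the 3 differences in Ythdf3, but none passed the main test. Their 13 peaks had log2 changes between -0.62 and -0.15, and in 7 of the 13 the cadmium samples all lay below the control samples, beside 12.5% of all peaks. Peaks of one gene share an RNA, so the 13 stand for 3 genes. Each of the 3 genes had one very wide peak, of 1316 bp in Ythdf1, 1576 bp in Ythdf2 and 1613 bp in Ythdf3, where the median peak of the table was 229 bp wide and 4.23% of peaks reached 1000 bp. That wide peak held 92.4%, 79.2% and 80.6% of the peak counts of Ythdf1, Ythdf2 and Ythdf3 in cadmium samples, and 91.5%, 78.6% and 78.8% in control samples.

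Ythdf3, a cytoplasmic reader that acts with the other YTHDF proteins, had 138, 132 and 119 CPM over its peaks in cadmium replicates and 164, 196 and 153 CPM in control replicates. The highest cadmium sample lay below the lowest control sample. The level averaged 130 ± 9.9 CPM in cadmium samples and 171 ± 22.4 CPM in control samples (SD, n = 3 each), a log2 change of -0.40 (SE 0.13, interval 0.619-fold to 0.928-fold). The unadjusted p was 0.0125 and the adjusted p 0.0833 by edgeR's quasi-likelihood test, or 0.0637 with the replicate number as a block. DESeq2 gave an adjusted p of 0.0426, so the call depended on the tool.

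Within Ythdf3 (chromosome 3, 16183148 to 16217037), the wide peak at 16203900 to 16205513 had 121, 125 and 111 CPM in cadmium replicates and 138, 179 and 138 CPM in control replicates. The groups did not overlap, and control replicate 2 stood highest (log2 change -0.35, SE 0.15, unadjusted p = 0.0405, adjusted p = 0.205 by edgeR). The 468 bp peak at 16213905 to 16214373, the one nearest the high-coordinate end, had 22.4, 19.8 and 18.0 CPM in cadmium replicates and 30.2, 34.9 and 23.8 CPM in control replicates. Here too no cadmium sample reached the lowest control sample. Its log2 change was -0.56 (SE 0.18), with an unadjusted p of 0.00877 and an adjusted p of 0.088, the smallest among the 42 peaks. The same peak had an adjusted p of 0.0371 and a log2 change of -0.57 in the authors' deposited table, which did not call it and in which no called peak had an absolute log2 change under 1.00.

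The narrow Ythdf3 peak at the low-coordinate end (16183241 to 16183356) had 2.72, 2.97 and 2.37 CPM in cadmium replicates and 4.62, 3.27 and 4.53 CPM in control replicates. It was lower in every cadmium sample than in any control sample (log2 change -0.62, SE 0.21, unadjusted p = 0.0118, adjusted p = 0.104 by edgeR). The remaining 2 peaks of the gene (16196306 to 16196440 and 16198427 to 16198599) overlapped between groups, with log2 changes of -0.15 and -0.28. The share of Ythdf3 counts in the wide peak was 80.6% ± 1.80 in cadmium samples and 78.8% ± 1.60 in control samples (SD, n = 3 each), a difference of about 1 SD.

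**Figure D3:**
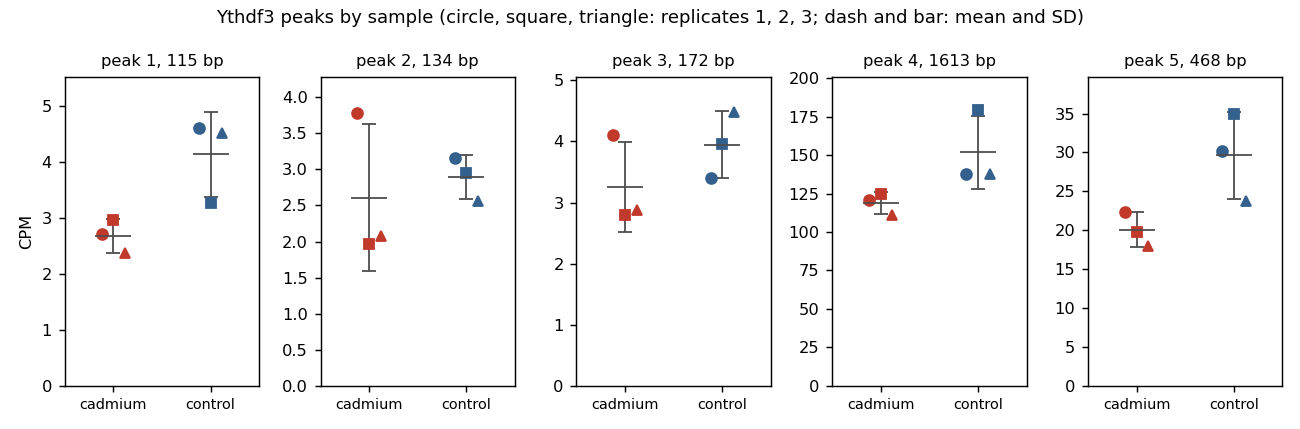
CPM of the 5 Ythdf3 peaks, numbered from the low-coordinate end, in each sample with the mean and SD of 3 samples per group. The groups are apart in peaks 1, 4 and 5 and overlap in peaks 2 and 3.

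Ythdf1, known for promoting translation of methylated mRNA, had 54.4, 58.0 and 55.8 CPM over its peaks in cadmium replicates and 64.2, 72.4 and 62.9 CPM in control replicates. The groups did not overlap, and the cadmium samples lay close together (56.1 ± 1.80 CPM in cadmium samples and 66.5 ± 5.16 CPM in control samples, SD, n = 3 each). The log2 change was -0.25 (SE 0.11, interval 0.712-fold to 0.999-fold, unadjusted p = 0.0489, adjusted p = 0.185 by edgeR). On the scale of single peaks, on which values are higher than on that of gene sums, its wide peak (chromosome 2, 180910739 to 180912055, 57.6% along the gene) had 54.8, 62.7 and 59.8 CPM in cadmium replicates and 63.3, 75.8 and 66.1 CPM in control replicates. Cadmium replicate 2 came within 1 CPM of control replicate 1, yet the groups stayed apart (log2 change -0.21, SE 0.14, adjusted p = 0.43). The narrow peak at 180905592 to 180905738 had 2.79, 2.88 and 2.59 CPM in cadmium replicates and 3.99, 3.76 and 3.42 CPM in control replicates, again without overlap (log2 change -0.44, SE 0.18, unadjusted p = 0.0341, adjusted p = 0.187 by edgeR). The last Ythdf1 peak (180904401 to 180904518) spread from 1.23 to 3.22 CPM within the cadmium samples alone.

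Ythdf2, which recruits the CCR4-NOT deadenylase to methylated mRNA, had 82.7, 88.1 and 83.9 CPM over its peaks in cadmium replicates and 88.1, 114 and 95.8 CPM in control replicates. The lowest control sample and the highest cadmium sample stood at the same level. Its log2 change was -0.23 (SE 0.12, interval 0.705-fold to 1.04-fold, adjusted p = 0.282). Its wide peak (chromosome 4, 132204131 to 132205707, 26.8% along the gene) had 72.3, 80.4 and 77.1 CPM in cadmium replicates and 74.5, 104 and 85.5 CPM in control replicates. The groups overlapped there, and control replicate 2 was again the highest sample (log2 change -0.20, SE 0.16, adjusted p = 0.505). The other 4 Ythdf2 peaks lay in pairs near the ends of the gene, at 1.15% and 5.41% and at 92.9% and 95.3% along it. They had log2 changes of -0.32 to -0.16. At the peaks at 1.15% and 92.9% every cadmium sample lay below every control sample, beside 12.5% of all peaks.

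**Figure D4:**
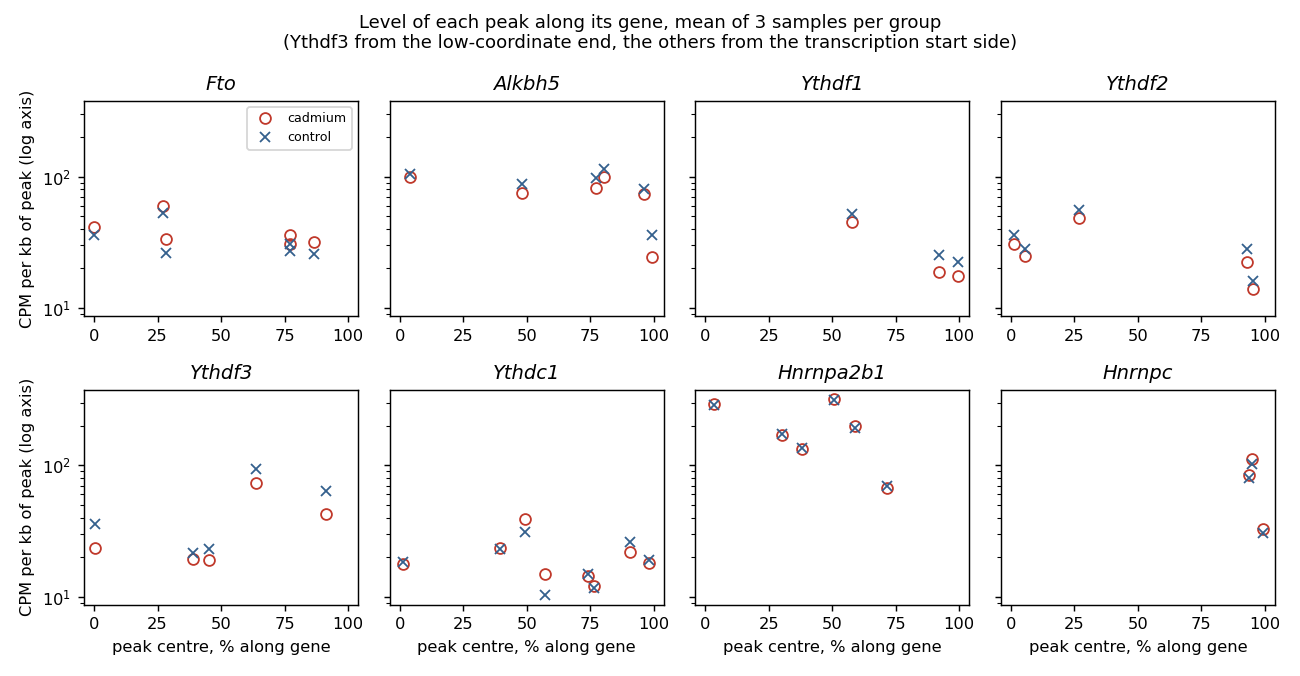
CPM per kb of peak width (log axis) for each peak against the place of its centre along the gene in percent, as the mean of 3 samples per group. The wide peak of Ythdf1, Ythdf2 and Ythdf3 is the highest of its gene in both groups, and all 3 Hnrnpc peaks lie at 93.8% or beyond.

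Ythdc1, the nuclear YTH-domain reader, carried the most peaks of the 8 genes, namely 8 (chromosome 5, from 1.48% to 98.1% along the gene), and 4 of them had log2 changes above 0. Over all 8 it had 58.2, 56.0 and 49.8 CPM in cadmium replicates and 48.4, 58.1 and 56.9 CPM in control replicates. The group ranges nearly coincided (log2 change 0.01, SE 0.12, interval 0.831-fold to 1.21-fold, adjusted p = 0.983). Its leading peak (86816443 to 86817371) had 19.7, 25.2 and 20.6 CPM in cadmium replicates and 15.7, 26.3 and 22.4 CPM in control replicates, with replicate 2 the highest of each group (log2 change 0.03, SE 0.20, adjusted p = 0.953). That peak and the first one also carry the symbol of the predicted gene Gm43055, and their reads cannot be told apart. The next 2 peaks along the gene were both narrow, at 86820014 to 86820129 and 86822667 to 86822774. Of the 8 Ythdc1 peaks they were the ones with no overlap between groups, the cadmium samples being higher, beside 14.4% of all peaks. They had log2 changes of 0.31 and 0.54 and adjusted p of 0.368 and 0.291. The second of them rested on 66, 82 and 82 counts in cadmium replicates and 62, 62 and 36 counts in control replicates.

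Hnrnpa2b1, a nuclear reader also linked to microRNA processing and RNA sorting, had the highest summed level of the 8 genes and was nearly the same in both groups: 393, 397 and 395 CPM in cadmium replicates and 394, 368 and 443 CPM in control replicates. The control samples enclosed the cadmium samples (log2 change -0.02, SE 0.12, interval 0.820-fold to 1.18-fold, adjusted p = 0.923). Its 6 peaks lay between 3.51% and 71.4% along the gene (chromosome 6, 51460434 to 51470048) and shared the counts evenly, with 11.0% to 22.3% each in cadmium samples and 11.4% to 21.7% in control samples. The leading peak (51464123 to 51464630) had 96.6, 105 and 99.4 CPM in cadmium replicates and 93.5, 89.9 and 110 CPM in control replicates (log2 change 0.04, SE 0.14, adjusted p = 0.906). All 6 log2 changes were between -0.05 and 0.04.

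Hnrnpc, which binds uridine tracts that m6A can make accessible, had 38.5, 35.9 and 36.0 CPM in cadmium replicates and 39.8, 27.8 and 36.5 CPM in control replicates. The cadmium samples fell within the control range (log2 change 0.09, SE 0.14, interval 0.847-fold to 1.33-fold, adjusted p = 0.747). Its 3 peaks, all narrow, lay at 93.8%, 94.8% and 99.1% along the gene (chromosome 14, 52073377 to 52104039). The leading one (52074892 to 52075060) had 18.5, 19.0 and 18.7 CPM in cadmium replicates and 19.6, 13.5 and 18.1 CPM in control replicates (log2 change 0.13, SE 0.17, adjusted p = 0.697). Both HNRNP genes have processed pseudogenes, and no source used here says what was done with reads that map to more than one locus, so their levels are uncertain.

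None of the 42 peaks was called as departing from the other peaks of its gene (edgeR's diffSpliceDGE, adjusted p below 0.05), beside 0.0833% of 31227 peaks tested. At an unadjusted p below 0.05 there were 0 of the 42, beside 1.20% of all peaks. The changes relative to the other peaks lay between -0.28 and 0.36 on the log2 scale, with 33 of 42 within 0.1 of 0. Ythdc1 held the highest, at its peak of 86822667 to 86822774, and Alkbh5 the lowest, at its last peak.

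Levels between genes were compared per kb of peak width, a measure that depends on methylation as well as on RNA. In cadmium samples Hnrnpa2b1 stood first at 140 ± 0.664 CPM per kb, followed by Alkbh5 (75.4 ± 4.64), Hnrnpc (67.1 ± 2.63), Ythdf3 (51.8 ± 3.96), Fto (40.0 ± 4.90), Ythdf1 (35.5 ± 1.14), Ythdf2 (34.8 ± 1.17) and Ythdc1 (15.9 ± 1.27) (SD, n = 3 each). In control samples the order was Hnrnpa2b1 (143 ± 13.6 CPM per kb), Alkbh5 (85.4 ± 10.8), Ythdf3 (68.4 ± 8.94), Hnrnpc (63.3 ± 11.3), Ythdf1 (42.1 ± 3.27), Ythdf2 (40.7 ± 5.44), Fto (35.2 ± 3.19) and Ythdc1 (15.8 ± 1.54). Neighbours in this order that differed by less than the sum of their SDs were Ythdf1 and Ythdf2 in both groups, Fto and Ythdf1 in cadmium samples, and Alkbh5 and Ythdf3, Ythdf3 and Hnrnpc, and Ythdf2 and Fto in control samples. Hnrnpa2b1 at the top and Ythdc1 at the bottom were apart from their neighbours by more than that in each group. On this scale Fto stood above Ythdf1 and Ythdf2 in cadmium samples and below both in control samples, an exchange of order within differences that were not called for any of the 3 genes. Hnrnpc likewise stood above Ythdf3 in cadmium samples and below it in control samples, with neither gene called by edgeR.

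The gene most like Ythdf3 in its level over the 6 samples was Usp53, a ubiquitin-specific peptidase family gene, out of 10177 genes with a mean of at least 5 CPM (Pearson's r of log2 CPM 0.999, n = 6). Its summed level was 13.9, 12.7 and 10.4 CPM in cadmium replicates and 18.2, 24.1 and 16.2 CPM in control replicates, with control replicate 2 highest and cadmium replicate 3 lowest as in Ythdf3. Next came Abcd2, a peroxisomal fatty acid transporter gene, at 0.998 and Atad2b at 0.996. These were picked as the closest of many in 6 samples that share their groups.

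**Figure D5:**
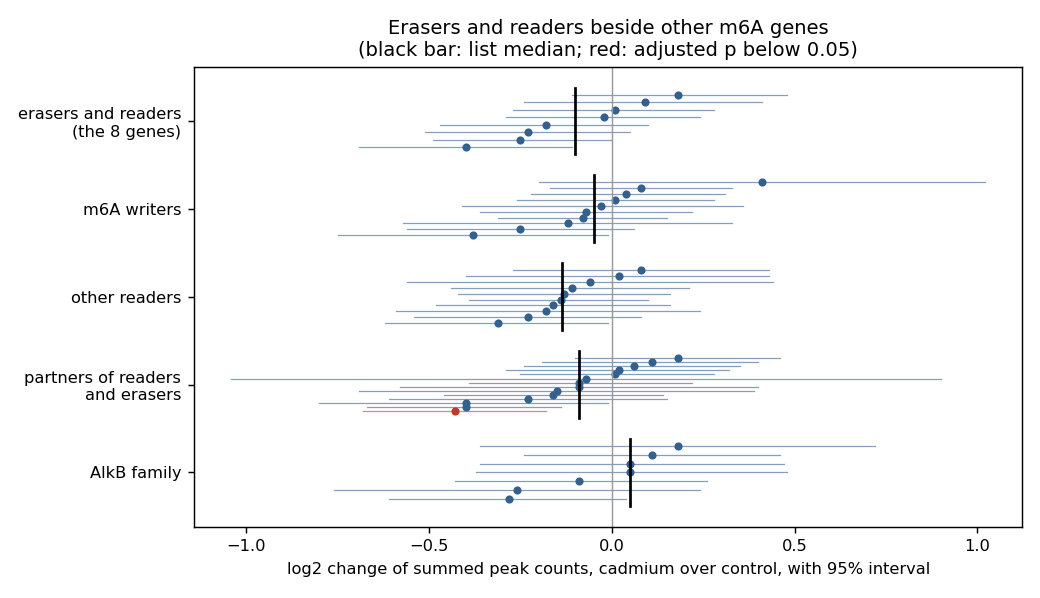
Log2 change of summed peak counts (cadmium over control) with 95% interval for the 8 eraser and reader genes and 4 lists of related genes, with the list medians as black bars. The median is -0.10 for the 8 genes, and the only gene with an adjusted p below 0.05 is a partner gene, Ddx3x.

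Of the other genes of the pathway, 1 was called by edgeR. Of the m6A writers 10 of 12 listed genes were tested, with 0 called, 1 at an unadjusted p below 0.05 and a median log2 change of -0.05. The catalytic pair Mettl3 and Mettl14 had no peak in the table used here. Of 14 other readers 10 were tested, with 0 called, 1 at an unadjusted p below 0.05 and a median of -0.14. Of the other AlkB-family genes 7 of 7 were tested, with 0 called, 0 at an unadjusted p below 0.05 and a median of 0.05. DESeq2 called 0 in these 3 lists. Over all genes, edgeR called 10.2%, and 26.7% had an unadjusted p below 0.05. The median over all genes was -0.00, and over the 8 members -0.10. Of the partners of readers and erasers 14 of 15 were tested, with 1 called lower and 0 called higher (median -0.09). At an unadjusted p below 0.05 there were 3 of the 14 (Ddx3x, Upf1 and Srsf10), beside 26.7% of all genes. The called gene was Ddx3x, an RNA helicase gene on the X chromosome whose protein interacts with ALKBH5. It had 112, 105 and 113 CPM in cadmium replicates and 157, 136 and 151 CPM in control replicates, with no overlap (log2 change -0.43, SE 0.11, adjusted p = 0.0417). The call of Ddx3x was lost in 5 of 6 fits that left out 1 sample. It held only without control replicate 2, and without the others the adjusted p was 0.0832 to 0.146. Upf1, a helicase gene of RNA decay whose protein works with YTHDF2, had 72.8, 88.0 and 85.7 CPM in cadmium replicates and 105, 106 and 115 CPM in control replicates. Its groups did not overlap either, and its adjusted p was 0.0606 by edgeR and 0.028 by DESeq2. Upf1 lies outside the naming rule and was chosen after its values were seen. By single peaks edgeR called 0 of 38 for the writers, 0 of 51 for the other readers, 0 of 50 for the partners and 0 of 9 for the AlkB family, with 0, 2, 8 and 0 at an unadjusted p below 0.05. Over all peaks, 6.27% were called and 21.8% had an unadjusted p below 0.05 by edgeR.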

How the data were processed

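The authors' deposited table holds raw counts for 37118 peaks in 6 samples, with a log2 fold change, a p-value, an adjusted p-value and a call per peak. Per the submitters' processing notes the build was mm10 and the tools named are DESeq2 4.1.0, MACS2 2.1.1, STAR 2.7.1a, cutadapt 1.1.8 and SAMtools 1.3.1; their roles and settings, the treatment of duplicates, strand and pooling for peak calls are not given in the sources used here. Whether starts count from 0 is not given either, so coordinates are as deposited. Column headers are library numbers shared by the immunoprecipitated and input library of a sample, and were read as immunoprecipitated because rows are m6A peaks. The 6 input libraries were not used here. Exons, introns and UTRs were not analysed here. The strand of Ythdf3 was not in the tables used.

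The tests used the quasi-likelihood method of edgeR 4.0.16 under R 4.3.3 (TMM, filterByExpr with minimum count 10 and minimum total 15, 3 cadmium against 3 control samples), per peak and on counts summed per gene symbol (a peak with several symbols went to each), and peaks against the rest of their gene (first symbol) with diffSpliceDGE. P-values were adjusted over all features. CPM are TMM-scaled, and the CPM of a gene come from the summed fit, in which a peak with several symbols counts once for each. They lie below the sum of the CPM of its peaks, by the same share for all 8 genes in a sample (10.4% to 13.1% in cadmium samples and 8.84% to 12.4% in control samples), so CPM of genes and of peaks are not on one scale. The SE is the absolute log2 change over the square root of F, and intervals are 95%. The fits were tested on simulated data. Named in full were the 8 genes, the leading peak of each, peaks with unadjusted p below 0.05, called genes of the related lists, and the 3 genes whose log2 CPM correlated most with the member of smallest p. Members and lists were chosen with earlier results of these data known.

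The labels call replicates 1, 2 and 3 batches 1, 2 and 3. The correlation of deviations from group means was 0.146, 0.214 and 0.174 within equal numbers and -0.173 to 0.016 between unequal ones. Deviations cancel out within a group, so higher values within equal numbers go with lower ones between unequal numbers. The pairing by number was thus weak, with all values within equal numbers above all those between unequal ones. The main tests did not use the pairing, and a fit with the replicate as a block was an alternative. That edgeR fit called 3144 peaks, against 2325 in the main fit. Its lowest adjusted p for a member peak was 0.0506, against 0.088. No 2 replicates agreed within sampling noise (chi-square per degree of freedom 31.9 to 161). Other alternatives were DESeq2 1.42.0 and its size factors, no filter, leaving out each sample, leaving out the 2 most abundant peaks, single-symbol peaks and leading peaks only.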

Additional observations from a re-analysis of the deposited data

How the results depend on the processing

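The 8 genes and their 42 peaks had 0 calls under every alternative except DESeq2's test, which called 1 member peak (of Ythdf3, log2 change -0.57, adjusted p = 0.0371) and 1 member gene (Ythdf3, -0.41, adjusted p = 0.0426). DESeq2 also called 3683 peaks of the whole table, against 2325 by edgeR, and 2 genes of the related lists (Ddx3x and Upf1) against 1. The fit with leading peaks alone gave 0 calls in those lists. The replicate block changed no call of a member, with 3144 peaks and 1475 genes called in all and lowest member adjusted p of 0.0506 (peaks) and 0.0637 (genes). Leaving out 1 sample at a time gave 543 to 1976 called peaks, 350 to 1022 called genes, 7 to 26 peaks departing from their gene (against 26) and 0 to 1 called genes of the related lists (0 in all these fits but that without control replicate 2). Without cadmium replicate 3 the counts were 543 and 350, and without control replicate 3 they were 1078 and 702. The log2 change of summed Ythdf3 was -0.47 to -0.29 in these fits (adjusted p 0.0988 to 0.3). The 13 peaks of the YTHDF genes stayed below 0 in all alternatives but that without cadmium replicate 2 (12 of 13), and all 6 Fto peaks stayed above 0 in all. The 6 Alkbh5 peaks stayed below 0 in all but those without control replicate 1 (4 of 6) and without cadmium replicate 1 (5 of 6).

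Values near 0 changed sign when 1 sample was left out: summed Ythdc1 (-0.07 to 0.07) and its leading peak (-0.16 to 0.20), summed Hnrnpc (-0.05 to 0.20) and its leading peak (-0.01 to 0.25), and summed Hnrnpa2b1 (-0.08 to 0.05) and its leading peak (-0.02 to 0.13). Hnrnpa2b1 was also at 0.01 with leading peaks only. Ddx3x had adjusted p of 0.0397 to 0.146 in the leave-outs and 0.062 with leading peaks only. The causes were not tested.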
